A study of Mus musculus with 4 samples.

Results

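The 43 genes described here encode the signalling machinery of the T cell receptor and the proteins that hold it back. They were chosen by name, with earlier results of these data known. The list holds receptor chains, kinases, adaptors, effector enzymes, negative regulators and NFAT factors, and all 43 were found among the 24312 genes of the deposited table. Poly(A) RNA was sequenced from P14 CD8 T cells of the C57BL/6 background in 2 groups of 2 libraries. P14 cells carry a transgenic receptor for the gp33 peptide of lymphocytic choriomeningitis virus, and both groups were activated with 100 ng/ml gp33 for 1 day, spin transduced with a retrovirus and kept activated for 1 more day. The MIG group received MSCV-IRES-GFP, the empty vector with its GFP marker, and the BATF group received the same vector carrying BATF, an AP-1 family transcription factor. After a wash, both groups had 2 days of expansion at 10 ng/ml IL-2, a sort for CD8+ GFP+ cells and 2 last days at 1 ng/ml IL-2, so that peptide was no longer added in the days before RNA was taken. The vector drives expression in every transduced cell and is not tied to a T cell promoter. Each group's libraries are described as biological replicates, and it is not stated that different mice gave them.

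When the T cell receptor meets its peptide, the SRC family kinase LCK, held close by the CD8 coreceptor, phosphorylates the CD3 and zeta chains, and the SYK family kinase ZAP-70 docks there and phosphorylates the scaffold LAT. Adaptors gathered on LAT bring in TEC family kinases and phospholipase C gamma. Of its products, inositol trisphosphate releases the calcium that activates NFAT through calcineurin, and diacylglycerol activates RAS and protein kinase C theta. Phosphatases, the kinase CSK, ubiquitin ligases and diacylglycerol kinases limit these steps.

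Libraries held 19004726 to 24795707 fragments. Batf itself stood at 36.1 and 26.5 CPM (counts scaled to a common library size) in the MIG libraries and 1342 and 934 CPM in the BATF libraries. Every set of values below gives MIG replicates 1 and 2 first and BATF replicates 1 and 2 after them. CPM carry edgeR's TMM scaling factors and serve to compare libraries, while FPKM, which also divides by transcript length, serves to compare genes. The 6 markers of CD8 T cells, of which 5 are among the 43 genes, summed to 2778 and 2824 CPM in MIG and 2238 and 2504 CPM in BATF, so that both BATF libraries were lower. The 37 markers of other cells summed to 82.3 and 77.2 CPM in MIG and 117 and 99.2 CPM in BATF, with 28 of the 37 under 1 CPM in every library. Of these 37, 12 were tested and 0 passed edgeR's test. At an unadjusted p under 0.05, 2 of the 12 were higher and 1 was lower. The higher ones were Zbtb7b (23.0 and 17.9 CPM in MIG, 44.2 and 34.9 in BATF), a factor of CD4 T cells, and Itgax (18.1, 21.7, 34.4 and 31.5 CPM), an integrin chain of dendritic and some T cells, and the lower one was Cd79b (17.2, 13.8, 12.4 and 11.2 CPM), a chain of the B cell receptor. The other 9 had an unadjusted p above 0.05. Their log2 fold changes were −0.53 (Foxp3), −0.47 (Fcer1g), −0.28 (Itgam), −0.26 (Cd40lg), −0.12 (Sox13), −0.06 (Cpa3), 0.01 (Kit), 0.43 (Cd163l1) and 0.43 (Cd4). The part of these markers in the results below was not tested.

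BATF cells carried less mRNA for Txk, a TEC family kinase, and no other gene of the 43 passed the test. In bulk RNA, fewer cells with a transcript and less of it per cell cannot be told apart. Txk fell 2.92-fold, whereas its relative and chromosomal neighbour Tec had a log2 fold change of 0.40 with the opposite sign. The other 42 genes lay between log2 fold changes of −0.60 (Cd6) and 0.52 (Themis). By the quasi-likelihood test of edgeR, with p-values adjusted after Benjamini and Hochberg over all 13008 genes tested, 1 of the 43 was lower in BATF, where 0.208% of all genes were, and 0 were higher, where 0.884% of all genes were. All 43 had passed the filter on low counts. At an unadjusted p under 0.05, 10 were lower and 5 higher, beside 4.09% and 6.69% of all genes, and DESeq2 called 2 lower (Txk and Pag1) and 1 higher (Themis), while limma-voom called 1 lower and 0 higher. DESeq2 called 0.807% of all genes lower and 2.16% higher, and limma-voom 0.192% and 0.753%. That makes 34.9% of the 43 genes past an unadjusted p of 0.05, beside 10.8% of all tested genes. The median log2 fold change of the 43 was −0.10, that of all tested genes −0.01, and 27 of the 43 were below 0 (62.8%, beside 51.5% of all). Both BATF libraries lay on 1 side of both MIG libraries in 26 of the 43 genes (60.5%), 16 lower and 10 higher, beside 38.7% of all genes (19.4% lower and 19.2% higher). Absolute log2 fold changes reached 0.3 in 8 of the 43, beside 23.4% of all genes, and their medians were 0.147 and 0.123. The 43 genes were more abundant than all tested genes (median 65.3 against 9.07 FPKM). Their standard errors were also smaller (median 0.0976 against 0.139), and at the same fold change a smaller standard error gives a smaller p. The part of this in the shares above was not tested. A permutation test of 1 gene with 2 libraries against 2 cannot give a two-sided p below 0.333, so the p-values given lean on edgeR's pooling of the spread over genes.

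The count of genes called depended on which library was in the fit. A fit with 1 library left out takes the spread of the group with 1 remaining library from the other group. Without MIG replicate 2, edgeR called 6 of the 43 lower (Txk, Cd6, Dgka, Lat, Pag1 and Ptprc; 1.95% of all genes) and 0 higher, with 2.32% of all genes higher. Without MIG replicate 1 it called Sla and Themis higher (1.4% of all genes) and Txk lower (0.393%). Without BATF replicate 1 it called Cd6 and Txk lower (0.487% of all genes) and 0 higher (1.51%), and without BATF replicate 2 it called Cd8a and Txk lower (0.404%) and 0 higher (1.39%). Txk was called lower in each of the 11 other fits. The median of the 43 moved to −0.18 without MIG replicate 2 and to −0.04 without MIG replicate 1, with the median of all genes at 0.00 in both.

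**Figure D1:**
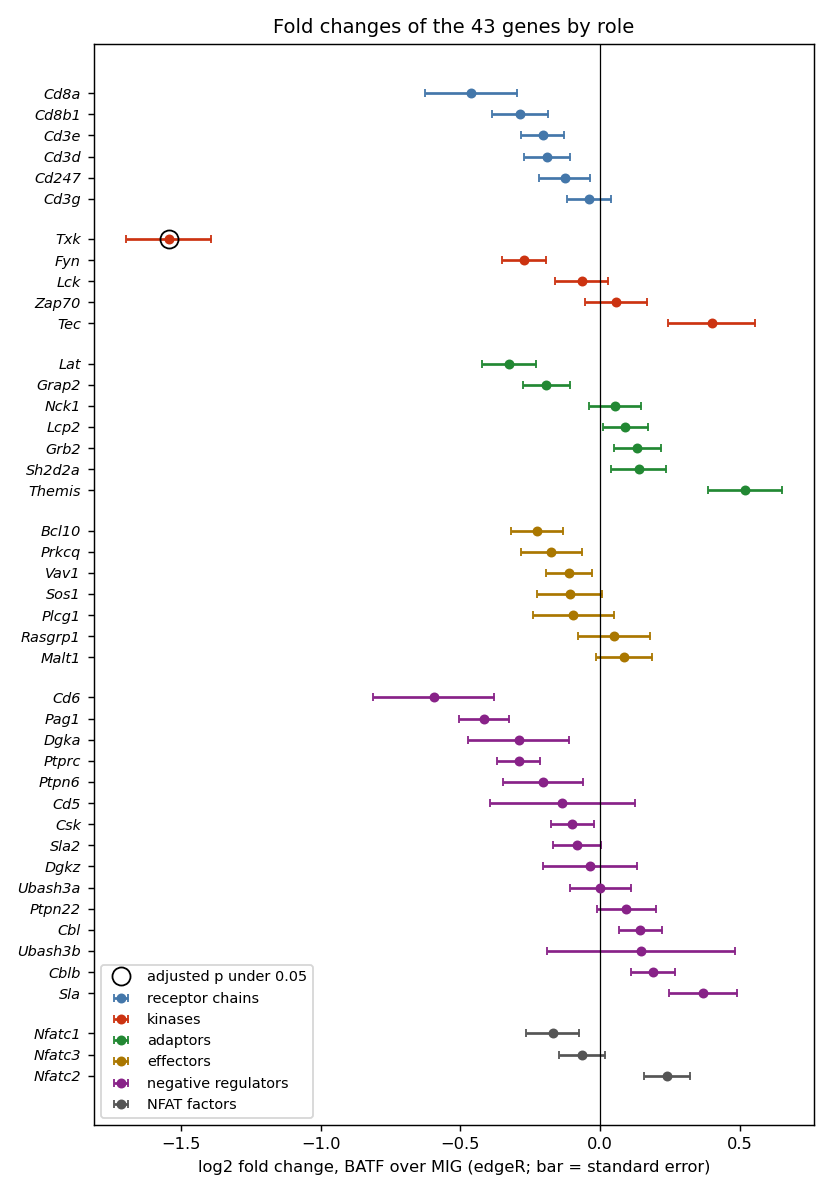
Log2 fold change of BATF over MIG for each of the 43 genes, grouped by role, with the standard error as a bar (2 libraries per group). Txk, at −1.55, is the 1 gene circled for an adjusted p under 0.05, and the other 42 lie between −0.60 and 0.52.

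TXK and TEC belong to the family of kinases that phosphorylate phospholipase C gamma once LAT has assembled its complex. Txk had 380 and 314 fragments in the MIG libraries and 94 and 121 in the BATF libraries, which is 15.5, 15.2, 4.96 and 5.56 CPM. Both BATF libraries lay far under both MIG libraries, and the replicates of a group differed by less than 1 CPM. Its log2 fold change was −1.55 ± 0.15 SE (edgeR adjusted p = 0.0113, n = 2 per group), with a range of −1.63 to −1.47 when a library was left out. Tec stood at 22.6 and 17.4 CPM in MIG and 25.5 and 27.3 in BATF. Its BATF libraries were the higher ones, and the difference did not pass (log2 fold change 0.40 ± 0.15 SE, edgeR adjusted p = 0.402, and from 0.22 to 0.61 with a library left out). In RefSeq's GRCm38.p6 annotation Txk and Tec are adjacent protein-coding genes on chromosome 5.

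Per length, Txk and Tec were of similar abundance in MIG and no longer in BATF. Txk stood at 7.55, 7.12, 2.34 and 2.67 FPKM and Tec at 9.26, 6.88, 10.2 and 11.1 FPKM. The ratio of Tec to Txk was 1.23 and 0.967 in the MIG libraries and 4.35 and 4.17 in the BATF libraries, so that the groups were well apart on the linear FPKM scale.

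**Figure D2:**
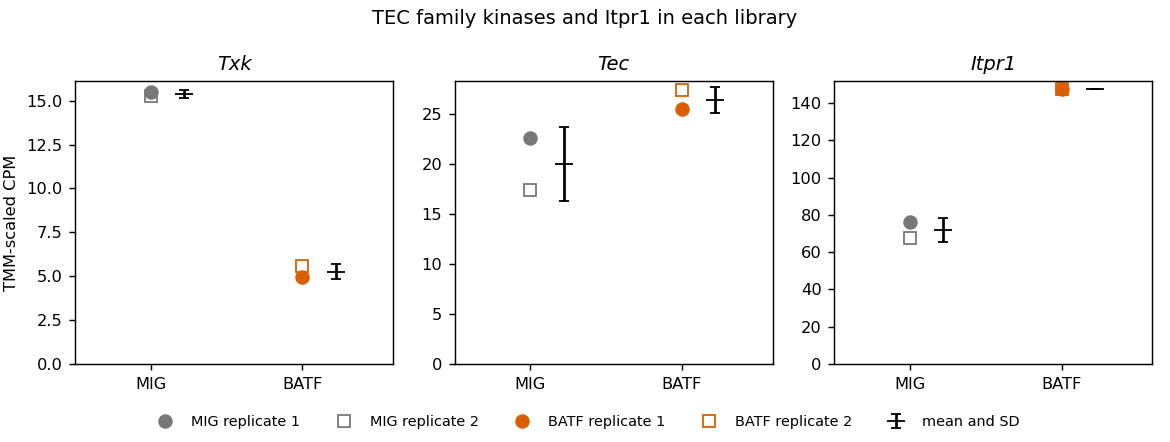
TMM-scaled CPM of the TEC family kinases Txk and Tec and of the calcium channel gene Itpr1 in each of the 4 libraries, on linear axes from 0, with the mean and SD of each group beside the points. Txk lies near 15 CPM in both MIG libraries and near 5 in both BATF libraries, and Itpr1 near 70 and 147.

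The bases upstream of the start site are shown for 3 of the kinase genes. Txk was the gene that fell and Tec is its neighbour. Zap70 was the 1 gene with a cyclic AMP response element (CRE) in such a window, among the 36 of the list with windows. The windows shown are up to 250 bases before the start sites in RefSeq's GRCm38.p6, less any base in an exon of GENCODE release M21 (which shortened that of Tec to 215). They were matched by symbol because the expression table itself was made on mm9. Sequences are 5′ to 3′ on the strand of the gene, and capitals mark matches on either strand to 3 motifs: TGANTCA, the AP-1 site; TGACGTCA, the CRE; and GGAAA, the core of NFAT sites. No match overlapped another. RefSeq gives Txk 2 start sites and Zap70 3, of which 1 each is shown. The Txk window lies at chr5:72752778-72753027 on the minus strand, the Tec window at chr5:72868484-72868698 on the minus strand and the Zap70 window at chr1:36761548-36761797 on the plus strand.
Txk: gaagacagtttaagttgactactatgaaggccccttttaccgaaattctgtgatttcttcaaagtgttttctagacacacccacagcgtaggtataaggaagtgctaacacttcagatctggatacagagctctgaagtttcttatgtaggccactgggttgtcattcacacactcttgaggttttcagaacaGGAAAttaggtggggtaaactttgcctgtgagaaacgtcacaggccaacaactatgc
Tec: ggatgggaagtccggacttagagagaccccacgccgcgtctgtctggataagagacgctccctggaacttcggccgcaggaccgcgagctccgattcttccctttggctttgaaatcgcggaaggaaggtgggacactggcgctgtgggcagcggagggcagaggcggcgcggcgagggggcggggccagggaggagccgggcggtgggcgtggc
Zap70: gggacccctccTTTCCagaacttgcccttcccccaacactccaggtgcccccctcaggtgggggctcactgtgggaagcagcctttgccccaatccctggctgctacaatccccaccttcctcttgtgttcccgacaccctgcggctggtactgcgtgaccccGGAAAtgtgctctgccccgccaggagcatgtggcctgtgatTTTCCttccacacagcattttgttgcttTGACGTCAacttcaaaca

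The Txk window holds 1 GGAAA and neither of the other motifs, with 42.8% G and C. The Tec window holds 0 matches to the 3 motifs and is 68.4% G and C. In the Zap70 window there is 1 CRE, close to the start site, and 3 matches to GGAAA. Across the list, 36 of the 43 genes matched the RefSeq table, with 53 windows of up to 250 bases between them. For the counts over windows that follow, exon bases were not removed. The AP-1 site was found in 0 of these 53 windows, beside 6.75% of all 32851 windows. The CRE was found in 1 of the 53 (1.89%, beside 1.55% of all) and GGAAA in 37 (69.8%, beside 55.6% of all). These counts describe the letters in the windows, and no binding was measured.

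None of the SRC and SYK family kinases passed the test. Lck, which starts the cascade, was the most abundant kinase of the list with 446, 369.5, 393 and 382 FPKM. Its groups overlapped (854 and 735 CPM in MIG, 776 and 742 in BATF), with a log2 fold change of −0.07, and of 0.05 once MIG replicate 1 was left out. Fyn, the second SRC kinase of T cells, stood at 299 and 284 CPM in MIG and 237 and 246 in BATF. Its groups did not overlap, and it did not pass (log2 fold change −0.27 ± 0.08 SE, edgeR adjusted p = 0.232). Lck exceeded Fyn 4.95-fold and 4.48-fold per length in MIG and 5.66-fold and 5.23-fold in BATF. Zap70, the kinase recruited to phosphorylated CD3 chains, stood at 268 and 219 CPM in MIG and 249 and 258 in BATF, and its groups overlapped. The log2 fold change of Zap70 was 0.06, and −0.09 without MIG replicate 2.

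All 6 genes of the receptor complex and the CD8 coreceptor had negative log2 fold changes, where 51.5% of all genes did. Their median was −0.20. By edgeR 0 of the 6 passed, and DESeq2 and limma-voom called 0 as well. At an unadjusted p under 0.05 in edgeR, 3 were lower, beside 4.09% of all genes. Of the CD3 chains, Cd3g, Cd3d and Cd3e lie side by side on chromosome 9 in RefSeq's GRCm38.p6. Cd3e stood at 460.3 and 476 CPM in MIG and 412 and 400.3 in BATF, with both BATF libraries under both MIG libraries (log2 fold change −0.20 ± 0.08 SE, edgeR adjusted p = 0.373). Cd3d stood at 306, 283, 264 and 253 CPM, again without overlap of the groups (log2 fold change −0.19). Cd3g stood at 435, 452, 423 and 440.3 CPM, and its groups overlapped (log2 fold change −0.04). Cd247, which encodes the zeta chain, stood at 207, 183, 175 and 182 CPM (log2 fold change −0.13), and the margin between MIG replicate 2 and BATF replicate 2 was narrow. Per length Cd3g was the most abundant of the 43 genes (mean 523 FPKM over the 4 libraries) and Cd247 the least abundant receptor chain (mean 123 FPKM).

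The coreceptor genes showed the widest differences of the receptor group. Cd8a, the chain whose tail binds LCK, stood at 659 and 749.7 CPM in MIG and 423 and 599 in BATF. BATF replicate 1 was the lowest library by far, and both BATF libraries lay under both MIG libraries. The log2 fold change of −0.46 ± 0.16 SE did not pass (edgeR adjusted p = 0.337). Leaving out each library in turn gave −0.74 (edgeR adjusted p = 0.0372) when it was BATF replicate 2, −0.23 (1.00) when it was BATF replicate 1, and values between these for the MIG libraries. Cd8b1, the partner chain and the next protein-coding gene on chromosome 6, stood at 675 and 656 CPM in MIG and 498 and 593 in BATF (log2 fold change −0.29 ± 0.10 SE, edgeR adjusted p = 0.337, and from −0.42 to −0.17 with a library left out). In FPKM the ratio of Cd8a to Cd8b1 was 0.406 and 0.476 in MIG and 0.353 and 0.421 in BATF, and these ranges overlapped. Cells of both groups had been sorted on CD8 protein 2 days before. The 4 markers of CD4 and regulatory T cells summed to 27.0 and 20.9 CPM in MIG and 47.7 and 37.4 CPM in BATF, and 0 of the 4 passed. Of these Zbtb7b had a log2 fold change of 0.95 (edgeR adjusted p = 0.0658), Cd4 of 0.43, Cd40lg of −0.26 and Foxp3 of −0.53, and Cd4 itself did not exceed 0.791 CPM in any library. Their part in the Cd8a and Cd8b1 values was not tested.

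**Figure D3:**
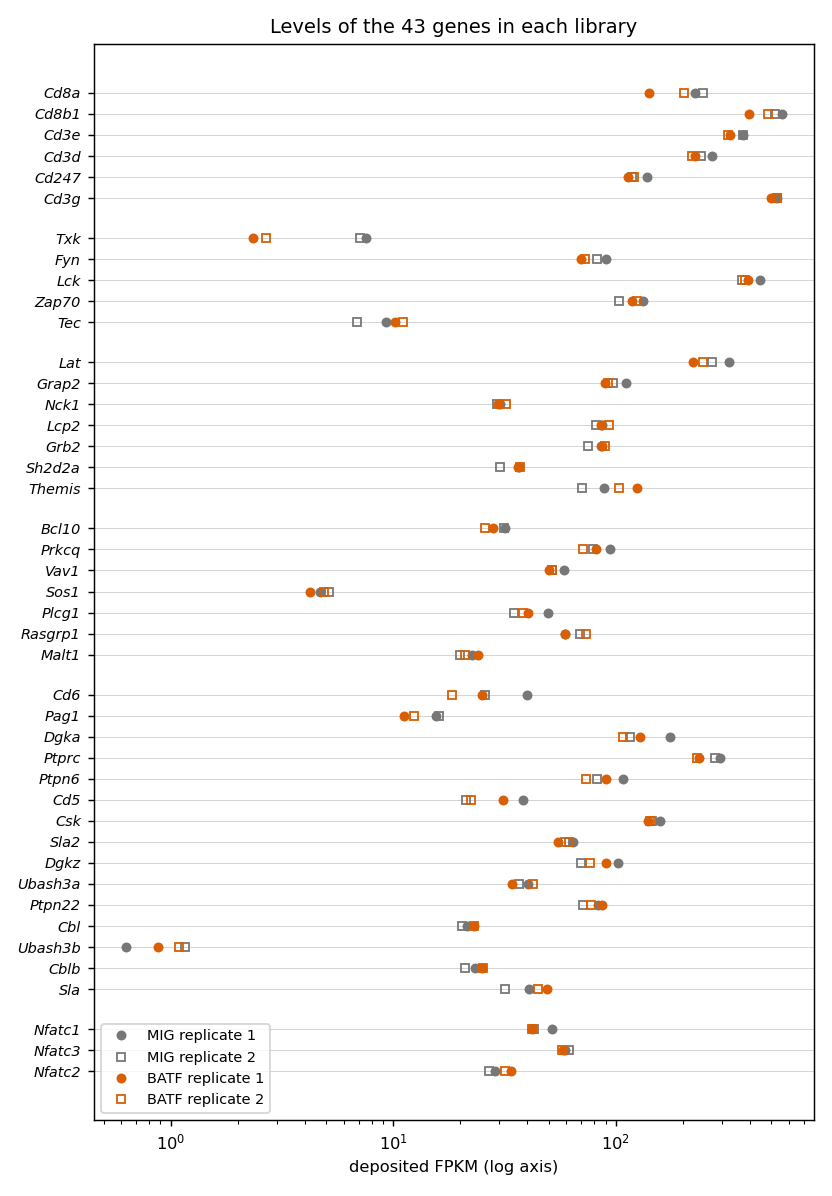
Deposited FPKM of each gene in each of the 4 libraries on a log axis, grouped by role. Levels run from Ubash3b near 1 FPKM to Cd3g near 500, and only for Txk do the 2 groups stand apart by more than a factor of 2.

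Every adaptor of the list had groups that did not overlap, 5 higher and 2 lower in BATF, beside 19.2% and 19.4% of all genes, by amounts that were small except for Themis and Lat. By edgeR 0 of the 7 passed. At an unadjusted p under 0.05 in edgeR, 1 was higher (Themis) and 1 lower (Lat), beside 6.69% and 4.09% of all genes. DESeq2 called 1 higher (Themis, beside 2.16% of all genes) and limma-voom called 0. Themis, a T lineage protein that binds GRB2 and the phosphatase SHP-1 and is needed for thymocyte selection, stood at 433 and 356 CPM in MIG and 622 and 509 in BATF. Both BATF libraries exceeded both MIG libraries, and replicate 1 exceeded replicate 2 in each group. Its log2 fold change was 0.52 ± 0.13 SE (edgeR adjusted p = 0.171), the highest of the 43. The adjusted p of Themis was 0.0197 in DESeq2, 0.0393 in edgeR with every gene kept (which called 1.17% of all genes higher and 0.364% lower) and 0.0364 in edgeR without MIG replicate 1, where the log2 fold change was 0.67. The other libraries left out in turn gave adjusted p-values of 0.0609 (MIG replicate 2, log2 fold change 0.38), 0.602 (BATF replicate 1, 0.37) and 0.0643 (BATF replicate 2, 0.66) for Themis. Lat, the scaffold at the centre of the pathway, stood at 332 and 288 CPM in MIG and 238 and 257 in BATF (log2 fold change −0.33 ± 0.10 SE, edgeR adjusted p = 0.242). Leaving out MIG replicate 2 gave −0.43 for Lat (edgeR adjusted p = 0.00974) and leaving out MIG replicate 1 gave −0.22 (0.347), and it did not pass without either BATF library.

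The other adaptors link LAT to its effectors. Grap2, which encodes GADS and ties SLP-76 to LAT, stood at 576, 523, 477 and 485 CPM (log2 fold change −0.19, edgeR adjusted p = 0.491). Lcp2, which encodes SLP-76, stood at 273, 265, 277 and 296 CPM, so that these binding partners had opposite signs. Grb2, which carries the RAS activator SOS1, stood at 206, 188, 214 and 218 CPM. Sh2d2a, an adaptor that binds LCK, stood at 167, 142, 170.3 and 170.0 CPM, and Nck1, which connects to the actin cytoskeleton, at 44.7, 45.1, 45.2 and 48.02 CPM. For these last 4 genes the log2 fold change lay between 0.05 (Nck1) and 0.14 (Sh2d2a).

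Effectors below the adaptors had log2 fold changes from −0.23 to 0.09, the narrowest range of the 6 roles. By edgeR 0 of the 7 passed, and DESeq2 and limma-voom called 0. At an unadjusted p under 0.05 in edgeR, 1 was lower, beside 4.09% of all genes. That gene was Bcl10, a part of the complex that activates NF-kB, at 55.5 and 57.5 CPM in MIG and 50.5 and 46.1 in BATF (log2 fold change −0.23 ± 0.09 SE, edgeR adjusted p = 0.460). Malt1, the protease of the same complex, stood at 108, 99.8, 118 and 103 CPM, and its groups overlapped. Plcg1, the phospholipase that makes the second messengers, stood at 210.4, 154, 176 and 165 CPM. MIG replicate 1 was the highest library of Plcg1: the log2 fold change was −0.10 with it and 0.15 without. Prkcq, which encodes protein kinase C theta, stood at 292, 254, 259.9 and 225 CPM, and Vav1, an activator of small GTPases that act on the cytoskeleton, at 232, 213, 204 and 207 CPM. The RAS activators Sos1 (40.9, 46.4, 37.8 and 42.97 CPM) and Rasgrp1 (291, 350.2, 299.9 and 364 CPM) both had the higher value in replicate 2 of each group. In FPKM Sos1 was the least abundant effector, with a mean of 4.72 over the 4 libraries.

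Brakes of the pathway had fold changes of both signs. Of the 15 negative regulators, 9 had a log2 fold change below 0 (60.0%, beside 51.5% of all genes) and 6 above. Their median was −0.08, and edgeR called 0. At an unadjusted p under 0.05 in edgeR, 3 were lower (Pag1, Ptprc and Cd6) and 2 higher (Sla and Cblb), beside 4.09% and 6.69% of all genes. DESeq2 called 1 lower (Pag1, beside 0.807% of all genes) and limma-voom called 0. The other 28 genes had a median of −0.10. Groups that did not overlap were seen for 7 of the brakes (46.7%) and 19 of the other 28 genes (67.9%), beside 38.7% of all genes. Whether these shares differ was not tested.

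Among the brakes, CSK with its anchor and the phosphatases act on the phosphotyrosines of LCK. Pag1, the membrane anchor of CSK, stood at 125 and 134 CPM in MIG and 92.8 and 101 in BATF, and both BATF libraries lay under both MIG libraries. Its log2 fold change of −0.42 ± 0.09 SE had the lowest adjusted p among the 42 genes that did not pass (edgeR adjusted p = 0.106), and it passed in DESeq2 (0.0452) and without MIG replicate 2 (edgeR adjusted p = 0.0381). Pag1 did not pass with any other library left out (edgeR adjusted p from 0.0561 to 0.613). Csk, the kinase that puts the inhibitory phosphate on LCK and FYN, stood at 402, 383, 367 and 365 CPM (log2 fold change −0.10). The ratio of Csk to Pag1 in FPKM was 10.1 and 9.03 in MIG and 12.5 and 11.4 in BATF. Ptprc, which encodes CD45 and removes that phosphate, so that it can also promote signalling, stood at 1523 and 1491 CPM in MIG and 1258 and 1206 in BATF. The groups of Ptprc stood apart by more than the replicates differed (log2 fold change −0.29 ± 0.08 SE, edgeR adjusted p = 0.188, with 0.0317 without MIG replicate 2 and 0.160 to 0.969 with any other library left out). Ptpn22, a phosphatase of LCK and ZAP-70, stood at 213, 188, 228 and 199 CPM, so that the groups overlapped (log2 fold change 0.09, and 0.00 without MIG replicate 2).

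Several brakes, the inhibitory coreceptors among them, differed between the replicates of both groups in the same direction. Cd5 and Cd6, adjacent on chromosome 19 and both encoding scavenger receptor family proteins, were higher in replicate 1 of each group. Cd5 stood at 71.1 and 41.3 CPM in MIG and 60.2 and 42.5 in BATF. Replicate 1 was thus 1.72 and 1.42 times replicate 2, and the groups overlapped (log2 fold change −0.13 ± 0.26 SE, and 0.32 without MIG replicate 1). Cd6 stood at 112 and 74.9 CPM in MIG and 72.0 and 52.1 in BATF, and its BATF libraries were below its MIG libraries. Its log2 fold change of −0.60 ± 0.22 SE did not pass (edgeR adjusted p = 0.358), but the value was −0.86 without MIG replicate 2 (edgeR adjusted p = 0.00147). It was −0.84 with BATF replicate 1 left out (edgeR adjusted p = 0.0129), −0.38 with BATF replicate 2 left out (0.802) and −0.27 with MIG replicate 1 left out (0.577).

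The diacylglycerol kinases, which remove the lipid that activates RAS, shared this pattern. Dgka stood at 456, 314, 346 and 284 CPM and Dgkz at 340.2, 241, 309.9 and 257 CPM, with replicate 1 the higher one in each group. The log2 fold change of Dgka was −0.29 ± 0.18 SE with all libraries, −0.54 (edgeR adjusted p = 0.00581) with MIG replicate 2 left out and 0.01 with MIG replicate 1 left out. For Dgkz it was −0.04, and 0.24 without MIG replicate 1. Ptpn6, which encodes SHP-1, stood at 216, 173, 187 and 151 CPM, and its groups overlapped. In all, replicate 1 was at least 1.2 times replicate 2 in both groups for 6 of the 43 genes (Themis, Cd5, Cd6, Ptpn6, Dgka and Dgkz), beside 6.67% of all genes. The opposite pattern held for 2 of the 43 (Rasgrp1 and Ubash3b), beside 5.47% of all genes. Negative regulators, 15 of the 43 genes, are 5 of those 6 and 1 of those 2 (Ubash3b). Whether these shares differ was not tested. The labels do not say what a replicate number marks.

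**Figure D4:**
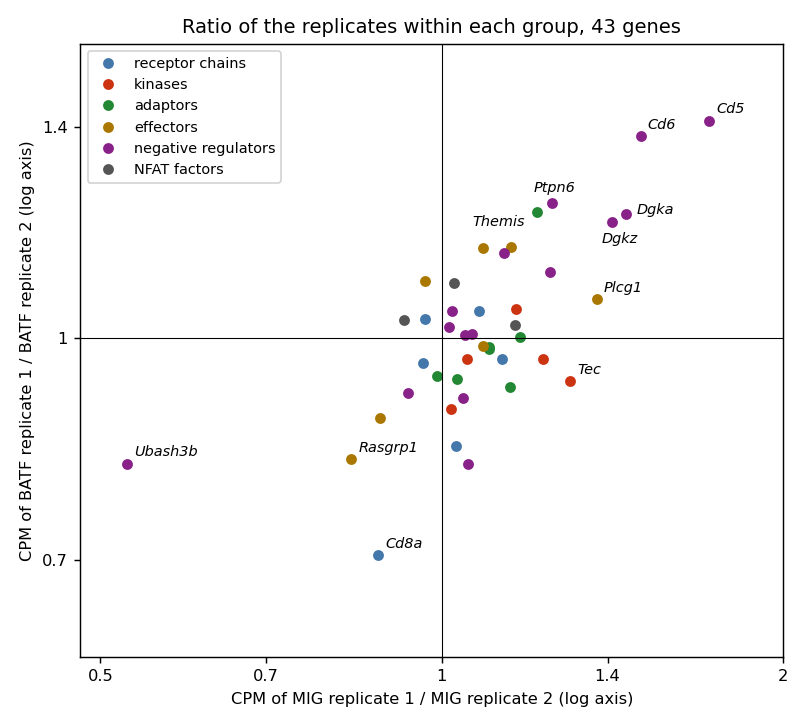
Ratio of replicate 1 to replicate 2 in the MIG group (horizontal, log axis) and in the BATF group (vertical, log axis), in TMM-scaled CPM, for the 43 genes by role. Cd5, Cd6, Ptpn6, Dgka, Dgkz and Themis sit in the upper right corner, where replicate 1 is at least 1.2 times replicate 2 in both groups.

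The remaining brakes are ubiquitin ligases, UBASH3 proteins and SRC-like adaptors. Cblb, a ligase that raises the threshold of T cell activation, stood at 142 and 134 CPM in MIG and 158 and 157 in BATF, and its relative Cbl at 105, 103, 116 and 114 CPM. In both, the BATF libraries were the higher ones by narrow margins (log2 fold changes 0.19 ± 0.08 and 0.14 ± 0.08 SE, edgeR adjusted p = 0.452 and 0.610). Ubash3a, the family member found mainly in lymphocytes, stood at 111, 105, 97.0 and 119 CPM (log2 fold change 0.00 ± 0.11 SE). Ubash3b, the more widely expressed member, was the least abundant of the 43 genes, at 0.632, 1.15, 0.876 and 1.09 FPKM. Sla, a SRC-like adaptor that promotes loss of receptor chains from the surface, stood at 113 and 90.6 CPM in MIG and 138 and 125 in BATF. Its groups did not overlap, while the log2 fold change of 0.37 ± 0.12 SE missed the threshold (edgeR adjusted p = 0.301). Leaving out MIG replicate 1 gave 0.54 for Sla (edgeR adjusted p = 0.0372) and leaving out MIG replicate 2 gave 0.21 (0.320), and it did not pass without either BATF library. Sla2, its paralog, stood at 148, 142, 131 and 144 CPM, and the ratio of Sla2 to Sla in FPKM was 1.58 and 1.87 in MIG and 1.12 and 1.38 in BATF.

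NFAT factors enter the nucleus when calcineurin removes their phosphates. By edgeR 0 of the 3 passed, and DESeq2 and limma-voom called 0. At an unadjusted p under 0.05 in edgeR, 1 was higher (Nfatc2), beside 6.69% of all genes. Nfatc2, known as NFAT1 and present before stimulation, stood at 186 and 181 CPM in MIG and 226 and 207 in BATF. Both BATF libraries were higher (log2 fold change 0.24 ± 0.08 SE, edgeR adjusted p = 0.329). Nfatc1, known as NFAT2 and inducible by receptor signals, stood at 223, 192, 187 and 183 CPM (log2 fold change −0.17 ± 0.10 SE), with both BATF libraries lower. Nfatc3 stood at 344, 371, 347 and 337 CPM, and its groups overlapped. Per length Nfatc3 was the most abundant of the 3 in every library, and the ratio of Nfatc1 to Nfatc2 was 1.81 and 1.6 in MIG and 1.24 and 1.32 in BATF.

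A further list of 63 genes of the pathway, none of them among the 43, covered other proximal components, calcium and calcineurin, NF-kB, RAS and MAP kinase, PI3 kinase and more brakes. By edgeR 1 of the 63 was higher in BATF and 0 were lower, beside 0.884% and 0.208% of all genes. An unadjusted p under 0.05 was found for 7 with higher and 6 with lower values, beside 6.69% and 4.09% of all genes. DESeq2 called 1 higher and 2 lower, beside 2.16% and 0.807% of all genes, and limma-voom 1 and 0, beside 0.753% and 0.192%. Without MIG replicate 2 edgeR called 3 higher and 5 lower, beside 2.32% and 1.95% of all genes. The gene that rose was Itpr1, which encodes the inositol trisphosphate receptor that releases calcium from the endoplasmic reticulum. Itpr1 stood at 76.3 and 67.3 CPM in MIG and 148 and 147 in BATF, a 2.05-fold rise (log2 fold change 1.04 ± 0.09 SE, edgeR adjusted p = 0.00856). It was called higher in each of the 11 other fits. Its relatives Itpr2 and Itpr3 did not pass, with log2 fold changes of 0.02 and −0.25. In FPKM Itpr1 stood at 7.90, 6.71, 14.8 and 15.0. The median log2 fold change of the 63 genes was 0.01.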

How the data were processed

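RNA of 4 samples (2 MIG, 2 BATF) was analysed from 1 deposited table, which lists every gene once for each library. Per the submitters' processing notes, the tools were TopHat2 2.1.1, Cufflinks 2.2.2 and Cuffdiff, and the build was mm9. The sources used here give neither the gene annotation nor the strandedness, so reads of overlapping antisense genes cannot be told apart. The deposited estimated counts carry a header for raw fragments. They were read as the fragments that the authors' run assigned to each gene before scaling, and 97.6% were whole numbers. The deposited FPKM, named so in its header, was read as the authors' scaled fragments divided by transcript length. Groups came from the titles. The table numbers replicates 0 and 1, read as 1 and 2, and the numbers only name libraries.

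Estimated counts were rounded for edgeR 4.0.16 under R 4.3.3 (filterByExpr, TMM factors from 0.988 to 1.01, glmQLFit and glmQLFTest, BATF against MIG without a covariate), with Benjamini-Hochberg adjustment over 13008 genes and a threshold of 0.05. The biological coefficient of variation was 11.3%. SE is the size of the log2 fold change before edgeR's shrinkage, over the root of the F statistic. Alternatives were DESeq2 1.42.0, its size factors in edgeR, limma-voom (limma 3.58.1), limma on log2(FPKM + 1) and log2(FPKM + 0.1) for genes with a mean FPKM of at least 1, no filter on low counts, the replicate number as a block, and each library left out in turn. On simulated data with known fold changes, the fits were required to recover the median fold change. The log2(FPKM + 1) fit and the fits with a library left out were not run there. Error rates of the calls are not given here. P-values reflect only how far these libraries spread, which may be technical. The 43 genes and all lists were chosen with earlier results of these data known. The rule for named genes accounts for each of the 43 and gave in full the genes that passed, with values those with an unadjusted p under 0.05 or an absolute log2 fold change of at least 0.3 without overlap of the groups, and close relatives always. Some genes of the wider pathway list enter its counts and are not reported here by name.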

Additional observations from a re-analysis of the deposited data

How the results depend on the processing

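Across the 11 alternatives the call of Txk and that of Itpr1 kept their direction and their side of the threshold. The fold changes of the other 42 genes kept theirs in most fits: under all alternatives, 414 gene values had the same direction and side, 24 passed only there and 22 turned sign. With DESeq2, 1 of the 43 genes was higher and 2 lower, and 2 of the 63 further pathway genes were lower. Of all genes, 2.16% were higher and 0.807% lower in that fit. With no filter on low counts, 1 of the 43 was higher and 1 of the 63 lower, beside 1.17% and 0.364% of all genes. With a library left out, 0 to 2 of the 43 were higher and 1 to 6 lower, 1 to 3 of the 63 were higher and 0 to 5 lower, and the median of the 43 ranged from −0.176 to −0.0447. Same-numbered libraries of the groups deviated together only weakly (correlation 0.181 across 13008 genes), and no label says that the number pairs them. With the replicate number as a block (residual degrees of freedom: 1), 4 of the 43 were higher and 9 lower, and 7 of the 63 were higher and 6 lower. The 4 were Nfatc2, Sla, Tec and Themis, and the 9 were Cd6, Cd8a, Cd8b1, Dgka, Fyn, Lat, Pag1, Ptprc and Txk. Of all 13008 genes, 1504 were called with the block (916 higher and 588 lower), against 142 without it (115 higher and 27 lower). Ubash3b had no value in the FPKM fits, since its mean was under 1. The cause of these changes was not tested.

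The sign changes concerned genes that did not pass. Ubash3a (log2 fold change 0.00) turned to −0.00289 in DESeq2, −0.00476 in limma-voom, −0.0101 and −0.0105 in the FPKM fits and −0.00502 with the block. The others came with a library left out, where log2 fold changes ranged from −0.178 to 0.0508 for Lck, −0.312 to 0.153 for Plcg1, −0.0965 to 0.185 for Rasgrp1, −0.479 to 0.315 for Cd5, −0.248 to 0.661 for Ubash3b, −0.542 to 0.00665 for Dgka, and from −0.27 to 0.24 for Dgkz, −0.0914 to 0.216 for Zap70, −0.00546 to 0.192 for Ptpn22, −0.153 to 0.141 for Ubash3a and −0.0201 to 0.185 for Malt1. Ubash3b had fewer than 4 CPM in every library, and its values have the least depth behind them among the 43 genes.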
